A study of Arabidopsis thaliana with 4 samples.

Results

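The flavin monooxygenases of the glucosinolate clade were followed as 10 loci of Arabidopsis thaliana: FMO GS-OX1 to GS-OX5 (AT1G65860, AT1G62540, AT1G62560, AT1G62570 and AT1G12140), NOGC1 (AT1G62580), AT1G12130, AT1G12160, AT1G12200 and AT1G62620. A locus was measured where a probe set of the array was paired with it and with no other gene, and 3 of the 10 had such a probe set: AT1G12200, AT1G12160 and AT1G12130. Each of these had 1 probe set, so no choice by brightness was needed. The array annotation paired AT1G62620 only with a probe set shared with AT1G63370, and the remaining 6 loci, among them all 5 named GS-OX genes, were not analysed here. The measured loci were therefore 3 relatives without a GS-OX name in the gene table used, in which AT1G12200 carries the general symbol FMO, for flavin monooxygenase. They were 3 of 13286 loci with a probe set of their own.

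The seedlings in both groups carried 35S::Dof3.2-GR, a transgene whose 35S promoter is active in most cells and whose product joins Dof3.2, a zinc finger transcription factor of the plant Dof type, to the steroid-binding part of the glucocorticoid receptor (GR). They grew at 22 °C, first on agar for 4 days, with kanamycin at 50 µg/ml and sucrose at 1%, and then in shaken liquid medium for 4 days. DEX seedlings then received 10 µM dexamethasone (DEX), a synthetic glucocorticoid that lets such a fusion enter the nucleus, for 3 h (2 arrays), and the others a mock treatment (2 arrays). Seedlings that lack the fusion were not analysed here under DEX, which means that effects of the drug and of the fusion cannot be told apart, and the labels do not say whether the 2 arrays of a group came from separate cultures. Every standard error and p-value therefore covers the array-to-array spread alone, and that spread may be technical.

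Glucosinolates are sulfur-rich defence compounds of the cabbage order, and their aliphatic forms in Arabidopsis are built from chain-elongated methionine. The FMO GS-OX enzymes add an oxygen to the sulfur at the end of the side chain, which turns methylthioalkyl into methylsulfinylalkyl glucosinolates. The cell damage that starts glucosinolate breakdown brings these compounds together with myrosinases, and the form of the side chain affects which products arise. Sequence relatives of the GS-OX genes lie beside them in tandem arrays, and membership in such an array does not show that a protein has the same activity.

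The arrays gave MAS5 signals, a background-corrected brightness per probe set on a linear scale, and each array was scaled as a whole. The median signal was 190.6 and 193.0 on the DEX arrays and 193.3 and 192.8 on the mock arrays. The median absolute log2 difference between arrays of a group was 0.118 for DEX and 0.162 for mock. Of 22746 probe sets, 13648 had a mean log2 signal at or above the 40th percentile, a signal of about 110.6, and were tested; those below it are called dim here. The labelled tissue was checked with marker genes. Of 8 green tissue markers, 4 had a probe set of their own, with signals of 3700 to 21970 on the DEX arrays and 4303 to 23728 on the mock arrays. Of 4 root markers, 2 had one, with signals of 140.2 to 14584 on the DEX arrays and 158.1 to 14012 on the mock arrays. The only measured member of the seed and pollen markers, AT1G29140, had signals of 1.90 and 11.2 on the DEX arrays and 2.19 and 12.6 on the mock arrays.

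AT1G12200 was the member with a higher signal after DEX. Its signal was 1116 and 1180 on the DEX arrays, against 661 and 586 on the mock arrays. Both DEX arrays lay above both mock arrays, and the gap between the groups was wider than the gap between arrays of either group. The means were 1148 ± 45.2 in DEX and 623.3 ± 53.1 in mock seedlings (SD, n = 2 each). The difference was 0.88 ± 0.12 on the log2 scale (SE of the limma fit), a 1.84-fold higher signal with a 95% interval of 1.54-fold to 2.21-fold. Over the 4 DEX over mock pairs the ratio ran from 1.69 to 2.01. The family was chosen with these DEX and mock values known, and the loci were selected on them in that sense, so the difference is a description, supports nothing further and gets no p-value here.

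In the limma fit with Benjamini-Hochberg adjustment at a threshold of 0.05, 40 of 13648 probe sets (0.293%) were called higher in DEX, and AT1G12200 was 1 of them and the only called member of the 2 that entered the fit. The family was chosen with this contrast known, so neither the call nor the count is a test of AT1G12200 or of the family, and nothing is read from them. Its difference was the 27th largest of the 40, and the 14th largest among the 18 that were paired with a single gene. In all, 37 tested probe sets (0.271%) had a log2 difference at least as high, and 10 of these were not called. Without DEX replicate 1 or DEX replicate 2, a fit whose spread comes from the mock arrays alone, AT1G12200 was no longer called, while its log2 difference was 0.92 and 0.84. Its log2 difference was 0.97 and 0.80 without mock replicate 1 and mock replicate 2.

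**Figure D1:**
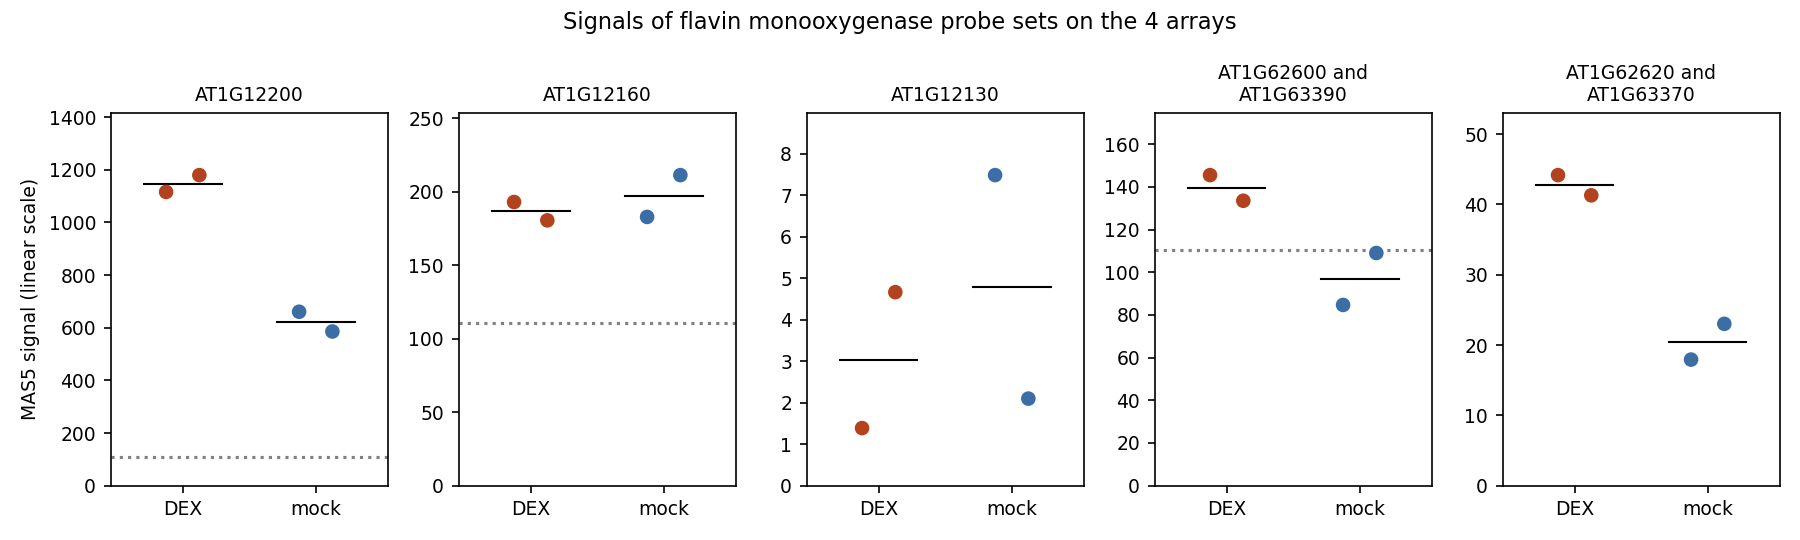
MAS5 signal (linear scale, a separate vertical axis per panel) on each array for the 3 members with a probe set of their own and for 2 probe sets shared by pairs of flavin monooxygenase genes. Points are arrays, bars are means of the 2 arrays and the dotted line is the filter level of about 110.6 where it falls in the panel. The DEX arrays of AT1G12200 sit at 1116 and 1180, above the mock arrays at 661 and 586, and those of AT1G12160 overlap the mock arrays.

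AT1G12160 did not separate the groups. Its signal was 193 and 180 on the DEX arrays, against 183 and 211 on the mock arrays. DEX replicate 1 lay between the mock arrays, so the groups overlapped. The means were 186.6 ± 8.82 in DEX and 197.0 ± 20.1 in mock seedlings (SD, n = 2 each). The log2 difference was -0.075 ± 0.16 (SE), with a 95% interval from -0.44 to 0.29, so the fit leaves room for a ratio of DEX over mock between 0.737 and 1.22.

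The ratio of the AT1G12200 signal to the AT1G12160 signal was 5.79 and 6.54 on the DEX arrays, against 3.62 and 2.77 on the mock arrays. The level of a ratio between different probe sets has no meaning of its own, but its change between arrays does not depend on how an array was scaled. On the log2 scale its mean was 2.62 on the DEX arrays and 1.66 on the mock arrays, a difference of 0.96. This difference restates the values of AT1G12200 and AT1G12160 given above, and no test of it was made.

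AT1G12130 was dim on every array. Its signal was 1.39 and 4.66 on the DEX arrays, against 7.48 and 2.10 on the mock arrays. The groups overlapped, and arrays of one treatment differed from each other by 1.75 on the log2 scale in DEX and 1.83 in mock. No difference between the treatments was detectable at this brightness (log2 difference -0.64 ± 1.19, SE of a limma fit of all 22746 probe sets). The median log2 difference over the 3 measured members was -0.075, and over the 2 tested ones it was 0.40, beside -0.0065 over all probe sets tested. With so few members neither median stands for the family.

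Probe sets shared by closely similar flavin monooxygenase genes gave a further reading, which cannot be assigned to either gene of a pair. The probe set paired with AT1G62620 and AT1G63370 had signals of 44.2 and 41.3 on the DEX arrays, against 17.9 and 23.0 on the mock arrays. Both DEX arrays were higher, but all 4 values were dim. The log2 difference was 1.07 ± 0.44 (SE of the fit of all probe sets). In that fit the difference did not pass the threshold (adjusted p = 0.590, limma with Benjamini-Hochberg adjustment). The probe set paired with AT1G62600 and AT1G63390, relatives outside the 10 loci, had signals of 146 and 134 on the DEX arrays, against 84.7 and 109.0 on the mock arrays. Its groups did not overlap either, which 39.3% of all tested probe sets showed in either direction; both DEX arrays lay above both mock arrays in 18.2%. Its log2 difference was 0.54 ± 0.20 (SE), and it did not pass the threshold (adjusted p = 0.427, limma with Benjamini-Hochberg adjustment over all tested probe sets).

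Of 19 listed flavin monooxygenase genes outside the 10 loci, 12 had no probe set of their own and the other 7 were too dim to test. The YUCCA enzymes, which make the hormone auxin from indole-3-pyruvate, had probe sets of their own for 4 of 11 genes (YUC2, YUC4, YUC6 and YUC11). A further 3 of 8 other listed genes (AT5G45180, AT5G07800 and AT5G61290) had one. Signals of these 7 genes ran from 1.59 to 121.7 on the DEX arrays and from 1.60 to 102.2 on the mock arrays, and none was kept by the filter. YUC4 and YUC6 were the 2 of the 7 whose groups did not overlap, beside 39.3% of all tested probe sets, and nothing is read from that count. YUC6 had 48.7 and 44.8 on the DEX arrays, against 37.9 and 35.2 on the mock arrays. YUC4 had 29.3 and 22.8 on the DEX arrays, against 13.3 and 20.4 on the mock arrays.

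All 10 loci lie on chromosome 1. In the RefSeq gene table AT1G12130, AT1G12140 (GS-OX5), AT1G12160 and AT1G12200 fall within a run of 8 protein-coding genes, with 3 other genes between AT1G12160 and AT1G12200. The genes from AT1G62540 (GS-OX2) to AT1G62620 form a second such run of 8 with 5 members, and AT1G65860 (GS-OX1) lies apart. Other protein-coding genes inside the first run and within 5 genes to either side numbered 14, of which 7 had a probe set of their own and 3 were bright enough to test. None of these 3 passed the threshold in limma. AT1G12120, which directly precedes AT1G12130, had signals of 610 and 733 on the DEX arrays, against 599 and 562 on the mock arrays (log2 difference 0.20 ± 0.13, SE). AT1G12230, beyond AT1G12200, had a log2 difference of 0.074 ± 0.12 (SE).

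AT1G12080, at the far side of the run from AT1G12200, came nearest to the threshold of these neighbours. Its signal was 1319 and 1419 on the DEX arrays, against 950 and 874 on the mock arrays (log2 difference 0.59 ± 0.11, SE; adjusted p = 0.0625, limma). The groups were apart, and the change did not pass. Around the second run 3 of 13 neighbours could be tested, with log2 differences from -0.31 to 0.31, and around AT1G65860 3 of 10, from -0.11 to 0.34. None passed the threshold, and of all 9 tested neighbours AT1G12080 had the lowest adjusted p.

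**Figure D2:**
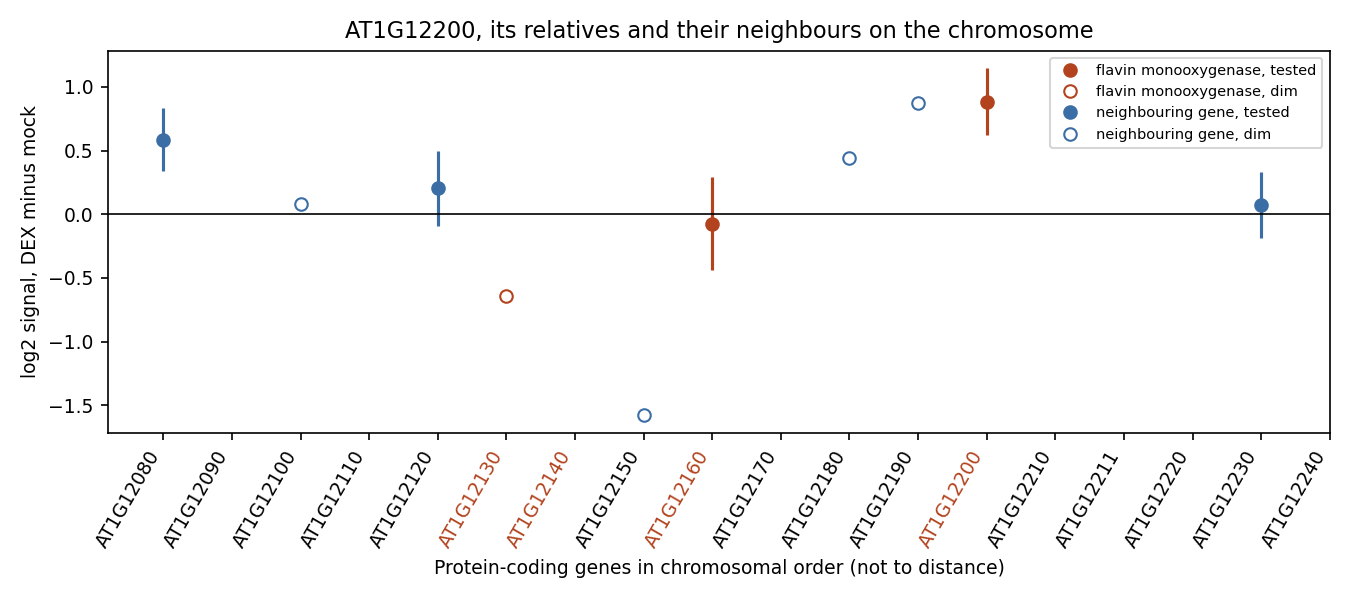
Log2 signal difference, DEX minus mock, for protein-coding genes of chromosome 1 around AT1G12200 in chromosomal order; genes without a point had no probe set of their own. Filled points were tested and carry the 95% interval of the limma fit, open points are dim probe sets and red marks the flavin monooxygenases. AT1G12200 stands at 0.88, AT1G12160 at -0.075 and the neighbour AT1G12080 at 0.59.

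The glucosinolate pathway around these enzymes was read from 5 lists with 71 genes, of which 13 had a probe set of their own and 12 were bright enough to test. None of the 12 passed the threshold in limma in either direction, beside 0.586% of all tested probe sets, and 2 had an unadjusted p under 0.05, BCAT4 and GTR2, as 9.25% of all tested probe sets did. The log2 differences of the 12 had a median of 0.072, beside -0.0065 for all tested probe sets, with 8 above 0 and 4 below. With 13 of 71 genes read, the lists describe only these genes and not the pathway.

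In methionine chain elongation, which lengthens the amino acid before the core is built, BCAT4 was the 1 gene of 12 that could be read. BCAT4, the aminotransferase that opens this stage, had signals of 7579 and 7417 on the DEX arrays, against 5764 and 4985 on the mock arrays. Both DEX arrays were higher (log2 difference 0.48 ± 0.11, SE), and the change did not pass the threshold (adjusted p = 0.12, limma). It passed with the replicate number as a block (adjusted p = 0.0306, limma), where 185 probe sets passed in all. In every other setting with all 4 arrays it did not pass (adjusted p from 0.0786 to 0.319, limma).

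In core synthesis, 3 of 20 genes were tested, and the log2 differences were small. UGT74B1, which adds the glucose of the core, had signals of 2357 and 1974 on the DEX arrays, against 1844 and 1996 on the mock arrays. GSTU20, a glutathione transferase gene, had 7974 and 7405 on the DEX arrays, against 6613 and 7717 on the mock arrays. AT2G31790 had 1567 and 1804 on the DEX arrays, against 1326 and 1650 on the mock arrays. The groups overlapped in all 3, and the log2 differences were 0.17 ± 0.12, 0.11 ± 0.11 and 0.18 ± 0.13 (SE) for UGT74B1, GSTU20 and AT2G31790.

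Among the other genes for side-chain modification, the step closest to that of the GS-OX enzymes, 2 of 11 were tested. AOP1, a relative of the dioxygenases that act on the side chain after S-oxygenation, had 242.0 and 233.1 on the DEX arrays, against 266.5 and 244.1 on the mock arrays. Both DEX arrays were slightly lower (log2 difference -0.10 ± 0.15, SE). AT2G25450 had 3962 and 3911 on the DEX arrays, between the 3544 and 4141 of the mock arrays (log2 difference 0.039 ± 0.11, SE). AOP3 was dim, with 21.4 and 11.4 on the DEX arrays and 21.8 and 30.3 on the mock arrays.

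Of 13 regulators, MYC3, MYC4 and AT1G04770 were tested, while the MYB factors of the pathway were not analysed here. MYC3 and MYC4, transcription factors of jasmonate signalling that act with those MYB factors, had log2 differences of -0.19 ± 0.26 and 0.24 ± 0.17 (SE). MYC3 had 304 and 157 on the DEX arrays, against 267 and 233 on the mock arrays, so the DEX arrays differed more from each other than the groups did. AT1G04770 had a log2 difference of -0.024 ± 0.11 (SE).

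Breakdown and transport were read from 3 of 15 genes. GTR2, a plasma membrane importer of glucosinolates, had signals of 939 and 913 on the DEX arrays, against 1148 and 1069 on the mock arrays. Both DEX arrays were lower (log2 difference -0.26 ± 0.11, SE), and the change did not pass the threshold (adjusted p = 0.507, limma). GTR1, a second importer of this kind, had 554 and 531 on the DEX arrays, against 532 and 436 on the mock arrays (log2 difference 0.17 ± 0.14, SE). PYK10, an abundant root β-glucosidase gene, had a log2 difference of 0.038 ± 0.10 (SE).

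**Figure D3:**
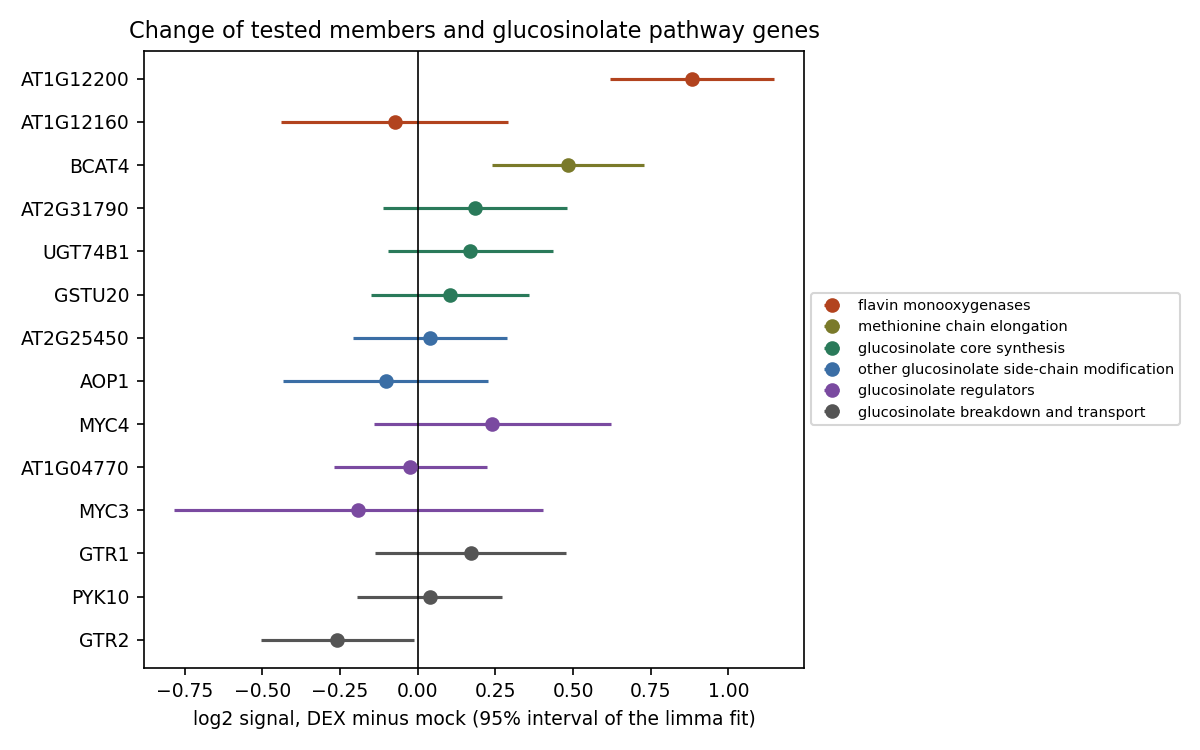
Log2 signal difference, DEX minus mock, of the 2 tested flavin monooxygenases and the 12 tested glucosinolate pathway genes, coloured by list, with the 95% interval of the limma fit. AT1G12200 stands at 0.88 and BCAT4 at 0.48; the other genes lie between -0.26 and 0.24.

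The genes most like AT1G12200 over the 4 arrays were sought among the 7245 other loci tested through a probe set of their own. Likeness was the root mean square distance between log2 profiles, each centred on its mean. AT5G14230 was nearest, at a distance of 0.026 on the log2 scale. Its signal was 309 and 325 on the DEX arrays, against 178 and 166 on the mock arrays. AT5G23760 followed at 0.047, with 665 and 654 on the DEX arrays and 390 and 353 on the mock arrays. AT5G52680 came next at 0.058, with 182 and 174 on the DEX arrays and 103 and 87.3 on the mock arrays. All were picked for their likeness, so their differences get no test, and 4 arrays allow many genes to look alike. None of the 3 was a member or in a glucosinolate list.

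**Figure D4:**
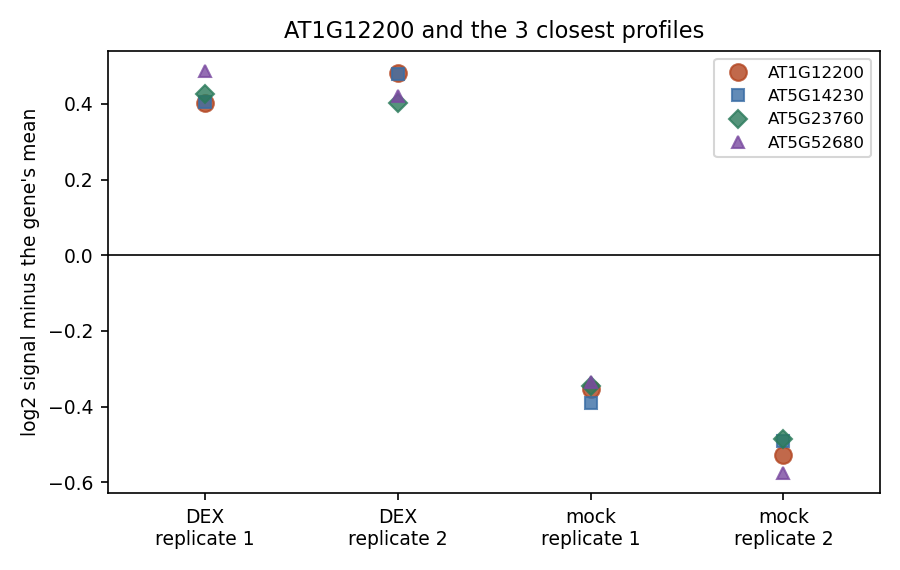
Log2 signal minus the gene's own mean on each of the 4 arrays for AT1G12200 and the 3 loci with the closest profile. For all 4 genes both DEX arrays lie above 0 and both mock arrays below it, as the choice by likeness requires.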

How the data were processed

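Total RNA of 4 samples was hybridised to 1-colour Affymetrix arrays, 2 for DEX and 2 for mock, grouped by the sample titles. The authors deposited MAS5 signal intensities, per the submitters' processing notes, which are linear as judged from the values; version, settings and genome build are not given in the sources used here, so no coordinates are printed. Detection calls were not used. Of 22810 probe sets, 64 controls were left out and the rest were log2-transformed with no pseudocount; those under the 40th percentile of mean log2 signal were not tested, which left 13648. In the array annotation 14016 were listed, 503 of them with several genes and 13513 with 1 gene, and 13436 single-gene probe sets matched a locus of the RefSeq table of assembly TAIR10.1 through gene identifiers. A probe set with several genes was assigned to none.

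The fit of DEX minus mock used limma 3.58.1 in R 4.3.3, with a group term and a variance trend, two-sided, with Benjamini-Hochberg adjustment over all tested probe sets. Of the 9.74 degrees of freedom of a test, 7.74 were borrowed across probe sets. The script was tested on simulated data. For arrays, their number limits the precision. Named are all members and the 3 closest profiles of each called member. Of each glucosinolate list, genes past the threshold and up to 4 with the lowest p are named. Tested tissue markers are given as signal ranges. Neighbours, shared and dim probe sets and other listed genes were named after their values were seen. The members and lists were chosen with earlier results of these data known. No sequence was printed, since none was used here.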

Additional observations from a re-analysis of the deposited data

How the results depend on the processing

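The number of probe sets past the limma threshold was 80, and it moved by more than 1.5 times to 25 without the filter, 43 with a filter at the 60th percentile and 185 with the replicate number as a block; leaving out single arrays gave 25 to 496 (27 without DEX replicate 1, 25 without DEX replicate 2, 496 without mock replicate 1 and 260 without mock replicate 2). AT1G12200 was called in each setting except without DEX replicate 1 and without DEX replicate 2, where 0 members were called in limma (1 at an unadjusted p under 0.05 in each), so leaving out single arrays gave 0 to 1 called members. The family was chosen with this contrast known, so these counts describe the settings and test nothing about it. Its log2 difference ran from 0.80 to 0.97. The median over the 3 measured members ran from -0.026 to 0.28 when single arrays were left out, set by the dim AT1G12130 where it was 0.23 (without DEX replicate 1) and 0.28 (without mock replicate 1). The log2 difference of AT1G12130 turned to 0.23 and 0.28 in these same settings, and that of AT1G12160 to 0.030 without mock replicate 2. Over the settings with all 4 arrays, the count of pathway genes called higher in limma was 0 except with the replicate block. There it was 1, BCAT4. Fits that left out an array are not covered by this count. No pathway gene was called lower in any setting with all 4 arrays. These are counts of calls: of the 12 tested pathway genes, 8 had a log2 difference above 0 and 4 below in the main fit.

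Same-numbered arrays deviated together at r = 0.109 over probe sets, but with 2 pairs and no label that ties them the numbers are not taken as pairs. Averaging several probe sets of a locus was not run, since each measured member had 1. Signal limits the reading of AT1G12130 and of the shared probe set with AT1G62620, both dim. Quantile normalization, median centring and a pseudocount of 16 left AT1G12200 between 0.87 and 0.89.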
